A study of Mus musculus with 22 samples.

Results

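The lysosomal cathepsin genes Ctsa, Ctsb, Ctsc, Ctsd, Ctsh, Ctsk, Ctsl, Ctss and Ctsz and the gene of their inhibitor cystatin B, Cstb, were followed through the RNA of retinal microglia that had or had not taken up dead neurons. These 10 genes were taken by name from the 35596 genes measured, with earlier results of these data known, and all 10 were found. Microglia are the resident macrophages of neural tissue. They were sorted from the retinas of 12-week-old mice whose eyes had been injected with apoptotic neurons 24 hours before, by their surface proteins (CD11b and Fcrls present, Ly6c absent). The Alexa488 label then parted phagocytic from non-phagocytic cells. The 4 groups were Apoe-/- phagocytic (n = 6 libraries), Apoe-/- non-phagocytic (n = 6), wild-type phagocytic (n = 5) and wild-type non-phagocytic cells (n = 5), where wild-type mice were C57BL/6 and Apoe-/- mice lacked the lipid carrier apolipoprotein E. Every group came from injected eyes, so no comparison here is with an uninjected retina. Retinas of the same sex and genotype were pooled, 5 to 6 for each library, with 100 to 500 phagocytic cells collected, and the sources do not say whether libraries of equal number came from the same eyes. The p-values therefore measure the spread between pools. Apoe-/- is given as the genotype of the mouse, so effects of Apoe loss in microglia and in other retinal cells cannot be told apart.

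Cathepsins are the proteases of the acidic lysosome, where a macrophage breaks down what it has engulfed. They are made as inactive precursors and are mostly carried to the lysosome by mannose 6-phosphate receptors. The cysteine cathepsins (B, C, H, K, L, S and Z) use a cysteine in the active site, cathepsin D an aspartate pair and cathepsin A a serine. Cystatin B is a small inhibitor in the cytosol and nucleus that binds cysteine cathepsins that leave the lysosome. In humans its loss causes a progressive myoclonic epilepsy, and in mice lacking it microglia are among the cells affected.

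Promoter sequences (from 250 bases before to 50 bases after the start, GRCm38.p6, the build also called mm10, RefSeq) were found for 7 of the 10 genes, and not for Ctsb, Ctsh and Cstb. Of these, 4 are shown. Ctsd, Ctsl and Ctsa are lysosomal genes with a CACGTG palindrome in the window, the core shared by the sites of the MiT/TFE factors, which drive many lysosomal genes, and by other E-box factors. Ctss is shown beside them as the most abundant member and has none. Capitals mark CACGTG or the longer palindrome TCACGTGA that contains it, and the sequences run 5′ to 3′ on the gene's strand.
Ctsd (chr7:142387778-142388077, minus strand): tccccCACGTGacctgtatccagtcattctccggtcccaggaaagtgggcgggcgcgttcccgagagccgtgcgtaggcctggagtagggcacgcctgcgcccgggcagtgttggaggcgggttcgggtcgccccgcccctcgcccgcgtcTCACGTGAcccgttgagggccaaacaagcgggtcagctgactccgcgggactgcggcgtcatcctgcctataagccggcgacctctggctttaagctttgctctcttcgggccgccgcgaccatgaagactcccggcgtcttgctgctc
Ctsl (chr13:64370471-64370770, minus strand): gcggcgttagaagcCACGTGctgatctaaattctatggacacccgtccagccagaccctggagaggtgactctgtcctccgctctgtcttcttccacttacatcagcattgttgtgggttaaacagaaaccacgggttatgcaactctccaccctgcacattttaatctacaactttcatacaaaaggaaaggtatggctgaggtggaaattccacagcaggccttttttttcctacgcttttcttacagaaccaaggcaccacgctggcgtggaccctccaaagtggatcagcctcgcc
Ctsa (chr2:164833523-164833822, plus strand): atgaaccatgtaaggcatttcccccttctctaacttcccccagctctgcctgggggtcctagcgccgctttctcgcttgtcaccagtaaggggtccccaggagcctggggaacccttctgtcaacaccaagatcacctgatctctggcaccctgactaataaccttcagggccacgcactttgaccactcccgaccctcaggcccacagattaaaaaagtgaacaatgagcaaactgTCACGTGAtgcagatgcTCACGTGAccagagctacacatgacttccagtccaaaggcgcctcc
Ctss (chr3:95526536-95526835, plus strand): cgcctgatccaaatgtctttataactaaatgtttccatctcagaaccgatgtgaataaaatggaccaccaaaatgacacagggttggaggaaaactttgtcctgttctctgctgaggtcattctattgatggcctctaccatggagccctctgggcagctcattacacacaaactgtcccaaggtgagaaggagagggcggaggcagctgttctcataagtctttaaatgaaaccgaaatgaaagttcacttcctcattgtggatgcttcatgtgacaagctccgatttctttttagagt

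In the Ctsd window CACGTG began 245 and 98 bases before the start, and the copy nearer to the start was part of TCACGTGA. The Ctsa window shown lay inside the annotated gene and held TCACGTGA on both sides of its start. A second Ctsa window, upstream at chr2:164832622-164832921, spans the annotated 5′ end of the gene (164832873) and held none. The Ctsl window held CACGTG once, 236 bases before the start. This window lay inside the annotated Ctsl gene, downstream of its 5′ end at 64370890. No copy of CACGTG, TCACGTGA or the AP-1 type motif TGANTCA was found in the windows of Ctsc, Ctsk, Ctss and Ctsz. All 3 motifs read the same on both strands. Among 32851 windows of the same length in the genome, 7.15% held CACGTG, 0.974% held TCACGTGA and 7.81% held TGANTCA. These matches describe letters in a window and were not tested against the expression data.

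The libraries held 1131045 to 3643499 estimated reads. Predicted genes made of satellite repeats took 9.14% to 51.7% of them, with Apoe-/- non-phagocytic libraries 2 (51.7%) and 5 (47.6%) above all others. Apoe stood at 8.91 to 34.9 CPM in Apoe-/- phagocytic and 7.02 to 17.6 CPM in Apoe-/- non-phagocytic libraries, against 1317 to 5145 and 869 to 1604 CPM in wild-type phagocytic and non-phagocytic libraries (CPM, read counts scaled to a common library total by the TMM method). All 11 microglia markers summed here, among them P2ry12 and Tmem119, were detected in every group. Fcrls and the CD11b gene Itgam are also among the 11, and cells were sorted on their proteins, so their detection was in part selected for. The 11 summed to 4242 to 12637 CPM in Apoe-/- phagocytic, 5831 to 13758 CPM in Apoe-/- non-phagocytic, 4497 to 13433 CPM in wild-type phagocytic and 4618 to 15387 CPM in wild-type non-phagocytic libraries.

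Compared per length, as the authors' TPM (reads per transcript length, scaled to the same total in each library), cathepsin S led. Ctss, whose protease trims the invariant chain of MHC class II in antigen-presenting cells, had the highest level of the 10 genes in 20 of 22 libraries (729.8 to 4224 TPM). Next by mean level over the 22 libraries came Ctsz (mean 1718 TPM), a carboxypeptidase that removes single residues, and Ctsd (mean 1574 TPM), the main aspartic protease of lysosomes. Ctsz lay above Ctsd in 15 of 22 libraries, so this pair had no fixed order. Ctsb, which acts both as an endopeptidase and as a carboxydipeptidase, followed with a mean of 1121 TPM and lay below Ctsd in 20 of 22 libraries. The mean TPM of Ctsc, the dipeptidyl peptidase that activates granule serine proteases, was 631. Lower still and without a fixed order were Ctsl (463 TPM), Ctsh (421 TPM), Cstb (386 TPM) and Ctsa (292 TPM), since neighbours in that order changed places in 9, 9 and 7 of 22 libraries. Ctsk, the collagen-degrading protease of osteoclasts, was close to absent (0 to 8.60 TPM).

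**Figure D1:**
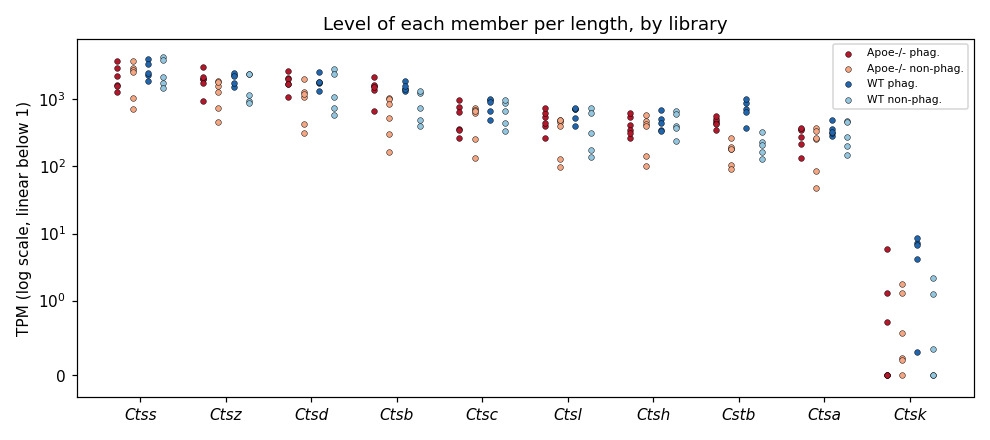
Level of each of the 10 genes in the 22 libraries, in TPM on an axis that is logarithmic above 1 and linear below, with 1 dot per library and the genes ordered by their mean. Ctss is at the top with 729.8 to 4224 TPM and Ctsk at the bottom with 0 to 8.60 TPM, and the ranges of all 4 groups overlap one another in every gene except Ctsb and Cstb.

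The sort was taken first in Apoe-/- retinas, where phagocytic cells were compared with non-phagocytic cells. Cathepsin B and cystatin B rose, and they were the 2 members that passed the test. Of all 12415 genes tested, 0.467% passed (edgeR's quasi-likelihood test, Benjamini-Hochberg adjusted p under 0.05). Lowest, median and highest values of Ctsb were 2301, 3565 and 4825 CPM in the 6 phagocytic libraries, against 888, 1588 and 2021 CPM in the 6 non-phagocytic ones. Every phagocytic library lay above every non-phagocytic library in CPM. In TPM the groups overlapped, with phagocytic library 2 at 666 and non-phagocytic library 1 at 1057 TPM. Ctsb was 2.38-fold higher in phagocytic cells (log2 fold change 1.25 ± 0.22 SE, edgeR, Benjamini-Hochberg adjusted p = 0.00624), which placed it 8th of all genes by p. Since these are bulk samples, a change in the kinds of cell collected and a change in RNA per cell cannot be told apart.

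Cstb reached 139, 250.2 and 309 CPM (lowest, median and highest) in Apoe-/- phagocytic libraries, against 74.6, 81.5 and 122 CPM in Apoe-/- non-phagocytic libraries. Again the groups did not overlap in CPM, and for Cstb not in TPM either (at least 349 against at most 262 TPM). The inhibitor gene was 2.68-fold higher in phagocytic cells (log2 fold change 1.42 ± 0.29 SE, edgeR, Benjamini-Hochberg adjusted p = 0.0205). Its call was lost without phagocytic library 5 (edgeR, Benjamini-Hochberg adjusted p = 0.0585) and without non-phagocytic library 4 (0.0533) or 6 (0.0574). Without the non-phagocytic libraries 2 and 5, rich in satellite reads, neither Ctsb (1.05 on the log2 scale, edgeR with Benjamini-Hochberg adjusted p = 0.0648) nor Cstb (1.45, adjusted p = 0.0759) passed, a check chosen after seeing the data.

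None of the other cathepsins passed in Apoe-/- cells in the unpaired edgeR fit, and their differences ranged from near 0 to intermediate. With libraries blocked by number, edgeR called Ctsd (Benjamini-Hochberg adjusted p = 0.00955), Ctsz (0.0265) and Ctsa (0.0448). Whether equal numbers share eyes is not known. Phagocytic libraries had lowest, median and highest Ctsd values of 3353, 4167 and 4823 CPM, against 1416, 2257 and 3870.1 CPM in the non-phagocytic ones, and only non-phagocytic library 1 reached into the phagocytic range (log2 fold change 0.85 ± 0.25 SE, edgeR, Benjamini-Hochberg adjusted p = 0.159). DESeq2 called it (Benjamini-Hochberg adjusted p = 0.0345), as did edgeR with the satellite share as a covariate (0.0415, chosen after seeing the data). For Ctsl, an endopeptidase of broad specificity, the phagocytic libraries had 630.4, 740.2 and 862 CPM, against 349.7, 524 and 615 CPM in the non-phagocytic ones, without overlap (0.57 ± 0.21). In TPM these groups overlapped, with phagocytic library 2 at 264 and non-phagocytic library 1 at 489 TPM. Ctsz held 2017, 3082 and 3696 CPM in the phagocytic libraries, against 1410, 2077 and 2424 CPM in the others, which overlapped (0.58 ± 0.19). Ctsa, a serine carboxypeptidase that also shields neuraminidase and beta-galactosidase, differed by 0.50 ± 0.21. Ctsh, an aminopeptidase, differed by 0.20 ± 0.19, Ctsc by 0.091 ± 0.21 and Ctss by -0.024 ± 0.22. The edgeR Benjamini-Hochberg adjusted p of the 6 genes after Ctsd ran from 0.216 for Ctsz to 0.989 for Ctss. Ctsk, which passed the filter on low counts only through the 5 libraries where it is high, is left out of the counts that follow. Of the 9 other members, 8 had a positive log2 fold change (median 0.57), against 47.7% of all genes tested (median -0.023). Non-overlapping groups in CPM with phagocytic cells higher were found for 3 members and for 0.524% of all genes tested. An unadjusted edgeR p under 0.05 was found for 6 of the 9 and for 9.93%. Members were chosen with earlier results of these data known, so these counts are a description and not independent support.

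**Figure D2:**
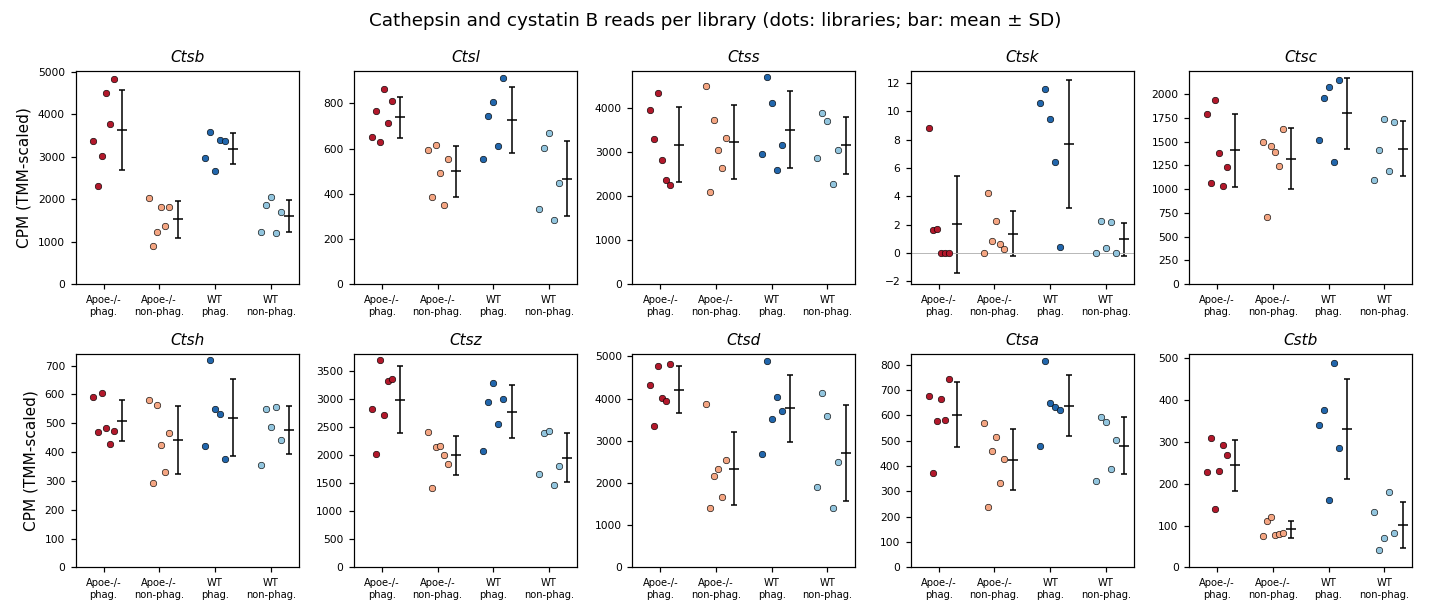
TMM-scaled CPM of the 10 genes (vertical axes from 0, except Ctsk, whose SD reaches below 0), with 1 dot per library and the mean ± SD beside each group (n = 6, 6, 5 and 5). Ctsb and Cstb are higher in phagocytic cells of both genotypes, whereas Ctss covers the same range in all 4 groups.

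The same sort was then compared in wild-type retinas, where cystatin B rose and was the only member called. Over all genes tested, 0.209% passed. Cstb had 340.1, 376, 162, 488 and 286 CPM in phagocytic libraries 1 to 5, against 132, 41.1, 70.1, 179 and 81.5 CPM in non-phagocytic libraries 1 to 5. Phagocytic library 3 was the lowest of its group and non-phagocytic library 4 the highest of its own, and these were the 2 libraries that overlapped. Cstb was 3.29-fold higher in phagocytic cells (log2 fold change 1.72 ± 0.32 SE, edgeR, Benjamini-Hochberg adjusted p = 0.0124). The call was kept without any 1 of the 10 wild-type libraries (edgeR, Benjamini-Hochberg adjusted p up to 0.0489), and lost when the fit held the wild-type groups alone (adjusted p = 0.102).

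Ctsb held 2959.9, 3575, 2666, 3398 and 3363 CPM in wild-type phagocytic libraries 1 to 5, against 1225, 1859.8, 2057, 1207 and 1697 CPM in non-phagocytic libraries 1 to 5. The groups did not overlap in CPM, and the means differed 1.98-fold, yet Ctsb missed the threshold (log2 fold change 0.99 ± 0.24 SE, edgeR, Benjamini-Hochberg adjusted p = 0.0829). In TPM they overlapped, with phagocytic library 3 at 1320 and non-phagocytic library 3 at 1352 TPM. DESeq2 called it (Benjamini-Hochberg adjusted p = 0.00591), as did edgeR with no filter on low counts (0.0391) and with the satellite share as a covariate (0.0198, chosen after seeing the data). Ctsb was also called by edgeR with libraries blocked by number (Benjamini-Hochberg adjusted p = 0.00249).

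Ctsl stood at 553, 743, 806, 613 and 913 CPM in wild-type phagocytic libraries 1 to 5, against 331, 604, 669, 282 and 449.8 CPM in non-phagocytic libraries 1 to 5, with overlap (0.63 ± 0.23 on the log2 scale). The values of Ctsd were 2692, 4879, 3509, 4025 and 3714 CPM in phagocytic libraries 1 to 5, against 1911, 4131, 3587, 1405 and 2496 CPM in non-phagocytic libraries 1 to 5. Here non-phagocytic libraries 2 and 3 were as high as phagocytic ones, and the difference (0.48 ± 0.27) did not pass. These 2 non-phagocytic libraries also had the lowest satellite shares of the series (9.94% and 9.14%). With that share as a covariate the difference was 0.44 (edgeR, Benjamini-Hochberg adjusted p = 0.500, chosen after seeing the data). Ctsz differed by 0.51 ± 0.21, Ctsa by 0.41 ± 0.23, Ctsc by 0.33 ± 0.23, Ctss by 0.15 ± 0.24 and Ctsh by 0.12 ± 0.21 (edgeR, log2 fold change ± SE, Benjamini-Hochberg adjusted p from 0.410 for Ctsl to 0.962 for Ctsh among these 7 cathepsins). Without Ctsk, all 9 other members had a positive log2 fold change in wild-type cells (median 0.48), against 49.2% of all genes tested (median -0.0076). Non-overlapping groups in CPM with phagocytic cells higher were found for 1 member and for 1.51% of all genes tested. An unadjusted edgeR p under 0.05 was found for 4 of the 9 and for 7.74%. These counts too are a description, given how the members were chosen.

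Ctss, first of the members by level, had lowest, median and highest values of 2256, 3044 and 4333 CPM in Apoe-/- phagocytic libraries, against 2092, 3184 and 4484 CPM in Apoe-/- non-phagocytic libraries. In wild-type retinas Ctss had 2953, 4702, 4112, 2585 and 3142 CPM in phagocytic libraries 1 to 5, against 2857, 3866, 3696, 2274 and 3036 CPM in non-phagocytic libraries 1 to 5. High and low libraries occurred in every group, and the means differed by less than the spread between pools. Ctsc ranged over 1034 to 1945 CPM in Apoe-/- phagocytic, 713 to 1634 CPM in Apoe-/- non-phagocytic, 1289 to 2153 CPM in wild-type phagocytic and 1095 to 1741 CPM in wild-type non-phagocytic libraries. Ctsh, in the same order of groups, ranged over 429.7 to 605, 292 to 581, 377 to 719 and 354 to 555 CPM, and Ctsa over 373 to 742, 239 to 572, 479 to 814 and 342 to 594 CPM. For all 4 genes the phagocytic and non-phagocytic ranges overlapped in both genotypes.

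**Figure D3:**
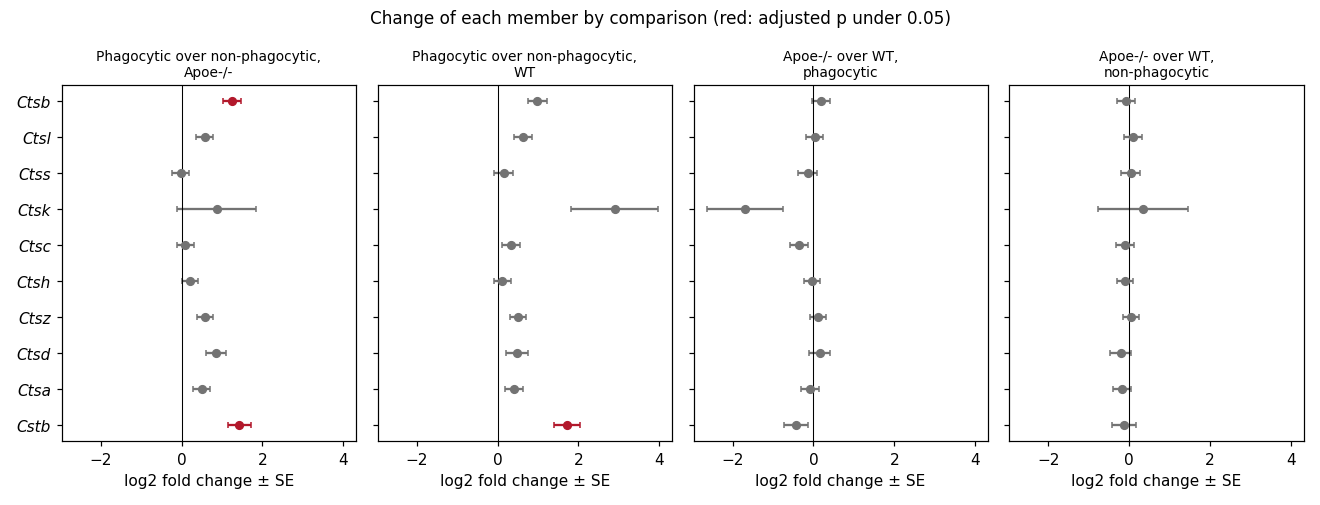
Log2 fold change ± SE of each gene in the sort comparisons (left, phagocytic over non-phagocytic) and in the genotype comparisons (right, Apoe-/- over wild type), with red dots for an adjusted p under 0.05. Red dots are Ctsb and Cstb in Apoe-/- cells and Cstb in wild-type cells, and the genotype panels hold none.

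Ratios between 2 genes of the same library do not depend on the scaling between libraries, and they are given as a description without a test. The TPM of Ctsb divided by that of Ctss was 0.529, 0.404, 0.427, 0.972, 0.846 and 1.21 in Apoe-/- phagocytic libraries 1 to 6, against 0.278, 0.229, 0.182, 0.370, 0.293 and 0.340 in Apoe-/- non-phagocytic libraries 1 to 6. In wild-type retinas it was 0.617, 0.470, 0.396, 0.748 and 0.636 in phagocytic libraries 1 to 5, against 0.227, 0.290, 0.344, 0.332 and 0.344 in non-phagocytic libraries 1 to 5. Within each genotype every phagocytic library had a larger ratio than every non-phagocytic library, and Apoe-/- phagocytic libraries 4, 5 and 6 had the largest. As a share of the summed TPM of the 7 cysteine cathepsins, Ctsb made up 15.2% to 27.2% in Apoe-/- phagocytic, 8.06% to 14.1% in Apoe-/- non-phagocytic, 14.1% to 22.1% in wild-type phagocytic and 10.4% to 13.6% in wild-type non-phagocytic libraries.

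The ratio of Ctsd to Ctss was 0.653, 0.800 and 1.34 (lowest, median and highest) in Apoe-/- phagocytic libraries, against 0.371, 0.457 and 0.538 in Apoe-/- non-phagocytic libraries, without overlap. In wild-type cells the same ratio was 0.584, 0.655, 0.535, 0.978 and 0.740 in phagocytic libraries 1 to 5, against 0.422, 0.672, 0.608, 0.394 and 0.515 in non-phagocytic libraries 1 to 5, and the groups overlapped. Cystatin B was set against its targets by the TPM of Cstb as a percentage of the summed TPM of the 7 cysteine cathepsins. This was 3.27%, 6.93% and 10.8% (lowest, median and highest) in Apoe-/- phagocytic and 2.12%, 3.19% and 6.22% in Apoe-/- non-phagocytic libraries. In wild-type phagocytic libraries 1 to 5 it was 10.6, 8.37, 4.02, 15.9 and 7.81%, against 5.94, 1.26, 2.12, 8.51 and 2.99% in non-phagocytic libraries 1 to 5. The median was higher in phagocytic cells of both genotypes, although single libraries overlapped. Cystatin C (Cst3), a secreted inhibitor of the same proteases, was far more abundant, and its TPM had a median of 83.5% of the cysteine cathepsin sum in Apoe-/- phagocytic, 143% in Apoe-/- non-phagocytic, 99.7% in wild-type phagocytic and 128% in wild-type non-phagocytic libraries.

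**Figure D4:**
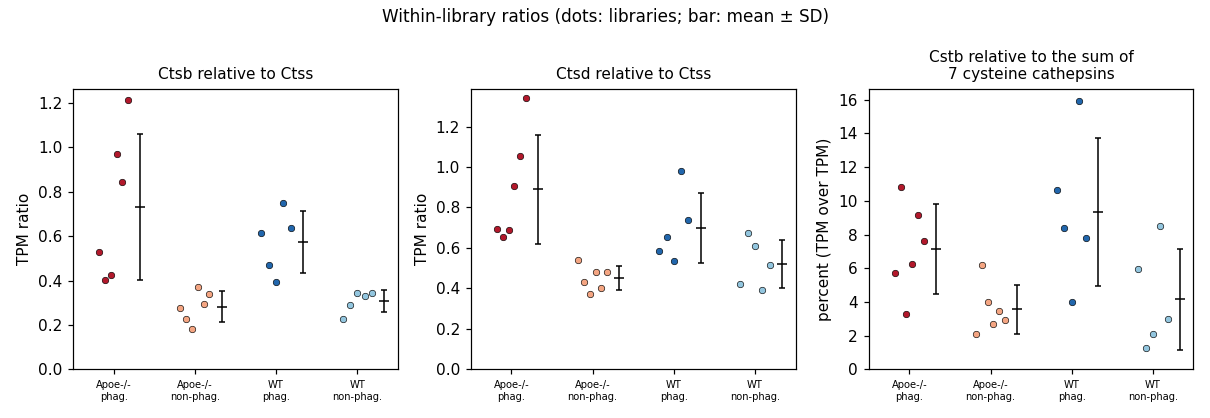
Within-library TPM ratios of Ctsb to Ctss and of Ctsd to Ctss, and the TPM of Cstb as a percentage of the summed TPM of the 7 cysteine cathepsins, with 1 dot per library and the mean ± SD beside each group (n = 6, 6, 5 and 5). The Ctsb ratio reaches 1.21 in Apoe-/- phagocytic cells and stays at or below 0.370 in non-phagocytic cells of both genotypes.

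Apoe-/- cells were then compared with wild-type cells within each sort, to ask whether loss of Apoe went with other levels of these genes. Among phagocytic cells 0 of the 10 members passed (edgeR, DESeq2 0), against 0.0322% of all genes tested. At an unadjusted p under 0.05 there were 0 members and 6.62% of all genes, and 4 of the 9 members other than Ctsk were positive, against 49.5% of all genes. Ctsb averaged 3628 ± 938 CPM in Apoe-/- phagocytic and 3192 ± 370.5 CPM in wild-type phagocytic cells (SD, log2 fold change 0.18 ± 0.23 SE). Cstb averaged 245 ± 61.0 CPM in Apoe-/- phagocytic and 330.5 ± 119.8 CPM in wild-type phagocytic cells (-0.43 ± 0.29), and Ctsc 1409 ± 380.5 against 1799.6 ± 375 CPM (-0.35 ± 0.22). The smallest edgeR Benjamini-Hochberg adjusted p among the members was 0.798.

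Among non-phagocytic cells 0 of the 10 members passed as well (edgeR, DESeq2 0), against 0.0161% of all genes tested. At an unadjusted p under 0.05 there were 0 members and 3.8% of all genes, and 3 of the 9 members other than Ctsk were positive, against 49.7% of all genes. Ctsd averaged 2338 ± 862 CPM in Apoe-/- cells, against 2706 ± 1138 CPM in their wild-type counterparts (SD, log2 fold change ± SE -0.21 ± 0.26), Ctsb 1523 ± 433 against 1609 ± 381 CPM (-0.079 ± 0.22) and Cstb 91.2 ± 19.9 against 101 ± 54.9 CPM (-0.14 ± 0.30). The direction of the 6 negative members was not stable, since without the satellite-rich libraries 2 and 5 the log2 fold changes of 5 of them (Ctsa, Ctsb, Ctsc, Ctsd and Ctsh) were above 0. Whether the sort effect differed by genotype was tested directly as an interaction. The interaction was 0.26 ± 0.32 for Ctsb, -0.29 ± 0.42 for Cstb and 0.37 ± 0.37 for Ctsd (log2 ± SE), and 0 of the members passed (edgeR, 0 at an unadjusted p under 0.05, DESeq2 0), against 0% of all genes (301, or 2.42%, at an unadjusted p under 0.05, DESeq2 2). The interaction was positive for 5 of the 9 members other than Ctsk and for 48.5% of all genes. The sort effects on Ctsb, called in Apoe-/- and not in wild-type cells, are thus not shown to differ.

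Ctsk, the osteoclast protease, was measured from few reads. Estimated reads were 27, 36, 22, 15 and 1 in wild-type phagocytic libraries 1 to 5, against 0, 6, 1, 4 and 0 in wild-type non-phagocytic libraries 1 to 5. In Apoe-/- retinas they were 32, 3, 3, 0, 0 and 0 in phagocytic libraries 1 to 6, against 0, 5, 2, 5, 1 and 1 in non-phagocytic libraries 1 to 6. The wild-type phagocytic libraries 1 to 4 and Apoe-/- phagocytic library 1 were thus the 5 libraries with more than 6 reads. The log2 fold change was 2.90 ± 1.08 SE for the sort in wild-type cells (edgeR, Benjamini-Hochberg adjusted p = 0.447), 0.87 ± 0.98 for the sort in Apoe-/- cells (0.862) and -1.70 ± 0.94 for Apoe-/- against wild type in phagocytic cells (0.798), and none passed. Fitted fold changes at such counts depend on the prior count, and the gene passed the filter on low counts through the 5 libraries just named, so that its differences were in part selected for. Markers of fibroblasts and mural cells, which also can express Ctsk, summed to 3.34 to 10.8 CPM in Apoe-/- phagocytic, 3.60 to 22.7 CPM in Apoe-/- non-phagocytic, 4.29 to 9.01 CPM in wild-type phagocytic and 3.73 to 17.6 CPM in wild-type non-phagocytic libraries, and 0 of the 8 passed the filter.

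Genes that work with the cathepsins were taken from lists drawn up by role, with earlier results of these data known. Of 14 other cathepsin genes, many of them known from rodent placenta, 2 had enough reads to test, Ctsf (33.8 ± 21.1 TPM in Apoe-/- phagocytic cells) and Ctso (15.5 ± 7.68 TPM), and 0 passed in either sort comparison (edgeR). Ctsw, known from cytotoxic lymphocytes, came next at 3.15 ± 3.25 TPM in the same cells and was too low to test. Other inhibitors of cysteine proteases gave 6 testable genes of 21, of which 0 passed. Cst3 differed by -0.41 ± 0.30 between phagocytic and non-phagocytic cells in Apoe-/- and by 0.023 ± 0.33 in wild-type retinas, beside the rise of Cstb. Cst7, the cystatin F gene that is known as a marker of activated microglia, differed by 0.31 ± 0.33 and 0.64 ± 0.36, and Ctla2b, which encodes a relative of cathepsin propeptides, by 0.37 ± 0.41 and -0.16 ± 0.44 (log2 ± SE, Apoe-/- before wild type).

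All 7 other lysosomal peptidases were tested and 0 passed in either sort (edgeR), with 5 positive in Apoe-/- cells (median 0.37) and 5 in wild-type cells (median 0.11). The smallest adjusted p of the list in Apoe-/- cells, chosen after the values were seen, were those of the carboxypeptidase Scpep1 (0.85 ± 0.21, edgeR, Benjamini-Hochberg adjusted p = 0.0685) and the dipeptidyl peptidase Dpp7 (0.94 ± 0.26, adjusted p = 0.131), which differed by 0.55 ± 0.23 and 0.11 ± 0.28 in wild-type cells. The asparaginyl endopeptidase Lgmn, which processes cathepsin precursors, differed by 0.066 ± 0.29 in Apoe-/- and 0.078 ± 0.32 in wild-type retinas, the tripeptidyl peptidase Tpp1 by 0.37 ± 0.20 and 0.44 ± 0.21, and the carboxypeptidase Prcp by -0.027 ± 0.21 and -0.013 ± 0.23. Among 10 genes of cathepsin sorting and of the complex held by cathepsin A, 0 passed, with 9 positive in Apoe-/- cells (median 0.45) and 8 in wild-type cells (median 0.23). M6pr, the smaller mannose 6-phosphate receptor, differed by 0.55 ± 0.19 and 0.56 ± 0.21, Nagpa, which uncovers the mannose 6-phosphate tag, by 0.35 ± 0.31 and 0.25 ± 0.34, and the endocytic receptor Lrp1 by 0.22 ± 0.22 and 0.049 ± 0.24. Of the 7 measured genes of class II presentation, whose maturation needs cathepsins S and L, all had a negative log2 fold change in both genotypes (median -1.33 in Apoe-/- and -1.29 in wild-type cells). Of these 1 passed, H2-DMb2 in Apoe-/- cells (-1.97 ± 0.40, edgeR, Benjamini-Hochberg adjusted p = 0.0205), with a mean of 16.5 ± 8.34 CPM in phagocytic cells, against 64.3 ± 26.0 CPM in the others (SD, n = 6 each). The others included H2-Ab1 (-1.36 ± 0.55 and -1.34 ± 0.60), H2-Aa (-1.33 ± 0.49 and -1.29 ± 0.54) and the invariant chain Cd74 (-0.57 ± 0.41 and -0.88 ± 0.45, log2 ± SE, Apoe-/- before wild type). Dendritic cell markers, whose cells are rich in class II, moved the same way, with 0 of 6 positive in Apoe-/- (median -0.83) and 0 of 6 in wild-type cells (median -1.67), none called, and their part in the class II values was not tested. In the genotype comparisons 0 genes of these 5 lists passed (edgeR).

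Markers of border macrophages, which lie along vessels and membranes of neural tissue, differed with the sort in part and are set beside the rise of Ctsb and Cstb. The 10 border macrophage markers summed to 421 to 1079 CPM in Apoe-/- phagocytic libraries, against 215 to 360 CPM in Apoe-/- non-phagocytic libraries, and to 523 to 994 CPM in wild-type phagocytic, against 263 to 377 CPM in wild-type non-phagocytic libraries. Of the 9 tested, 8 had a positive log2 fold change in each genotype (median 2.00 in Apoe-/- and 1.93 in wild-type cells). In Apoe-/- cells 3 passed (edgeR, Benjamini-Hochberg adjusted p under 0.05), Pf4 at 3.29, F13a1 at 2.76 and Stab1 at 1.18, against 0.467% of all genes. In wild-type cells 2 passed, Pf4 at 3.37 and F13a1 at 2.47, against 0.209% of all genes. Clec10a differed by -1.46 ± 0.82 in Apoe-/- and -2.15 ± 0.87 in wild-type cells, against the other 8. Stab1 made up much of the sums, with medians of 499.6 CPM in Apoe-/- phagocytic, 227 CPM in Apoe-/- non-phagocytic, 427 CPM in wild-type phagocytic and 219.6 CPM in wild-type non-phagocytic libraries. Lyve1 and Cbr2 had 0 reads in 3 or more libraries of each non-phagocytic group and in up to 2 of each phagocytic group. Of the 11 microglia markers, 2 had a positive log2 fold change with the sort in Apoe-/- cells (median -0.35), against 47.7% of all genes. In wild-type cells 4 were positive (median -0.26), against 49.2% of all genes, and none was called in either genotype. Dendritic cell markers summed to 40.5 to 111 CPM in Apoe-/- phagocytic, 75.1 to 158 CPM in Apoe-/- non-phagocytic, 24.4 to 69.7 CPM in wild-type phagocytic and 39.1 to 365 CPM in wild-type non-phagocytic libraries. For monocyte markers the sums were 425 to 1233, 529 to 1281, 1065 to 3353 and 646 to 3250 CPM in the same order of groups, for neutrophil markers 1.67 to 175, 0.415 to 442, 3.22 to 419 and 0.374 to 357 CPM, for rod markers 1518 to 7726, 2082 to 4675, 1041 to 4841 and 1170.4 to 5852 CPM, and for Mueller glia markers 276 to 388, 194 to 298, 329 to 669.9 and 195 to 592 CPM. The part of these cells in the cathepsin values was not tested.

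The members were compared by how they varied across the 22 libraries (Pearson's r of log2 CPM, a description over libraries that share depth and group). Ctsa and Ctsd (0.88), Ctsd and Ctsz (0.87) and Ctsb and Ctsd (0.87) varied most alike. Once group means were removed, Ctsa and Ctsb still had r = 0.85. Cstb then ran against several cathepsins, with r = -0.65 for Ctsz, -0.59 for Ctsc and -0.58 for Ctss, so that pools rich in Cstb within a group tended to be low in these. Wild-type phagocytic library 4, wild-type non-phagocytic library 4 and Apoe-/- phagocytic library 2 had the most Cstb of their groups. They also had the highest neutrophil marker sums there (419, 357 and 175 CPM). S100a8 and S100a9 reached 220 and 186 CPM in wild-type phagocytic libraries. Ly6g stayed at or below 0.901 CPM in every group, and Retnlg reached 27.0 CPM in Apoe-/- phagocytic libraries. Both wild-type libraries 4 also had the highest monocyte marker sums of their groups (3353 and 3250 CPM). Apoe-/- phagocytic library 2 did not, with 1042 CPM against 1233 CPM in library 1. In Apoe-/- non-phagocytic cells Cstb was highest in library 3, whose neutrophil sum was 0.415 CPM. The part of neutrophils or monocytes in these correlations was not tested. The 3 genes most like Ctsb over all libraries were Pld3 (r = 0.929), Adgre1 (r = 0.920) and Fcgr4 (r = 0.913). For Cstb they were Lgals3 (r = 0.949), Gabarap (r = 0.939) and Anxa5 (r = 0.938), for Ctsd Grn (r = 0.896), Gnptg (r = 0.884) and Ctsa (r = 0.875) and for Ctsz Grn (r = 0.963), Lgals9 (r = 0.914) and Fcgr4 (r = 0.901). Ctss varied most like Csf1r (r = 0.921), Lpcat2 (r = 0.919) and Cd81 (r = 0.911), Ctsl like Ctsd (r = 0.849), Gnptg (r = 0.846) and Pld3 (r = 0.844) and Ctsa like Slc11a1 (r = 0.913), Glmp (r = 0.903) and Cd68 (r = 0.890). Nearest to Ctsc were Cers2 (r = 0.883), Nagpa (r = 0.870) and Cers5 (r = 0.869), and to Ctsh Fuca1 (r = 0.855), Arf4 (r = 0.837) and Scarb2 (r = 0.830). For Ctsk, with its few reads, they were Vapa (r = 0.806), Hibadh (r = 0.793) and Gm28136 (r = 0.757).

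Of the 2 members called in a sort comparison by the unpaired edgeR fit, Cstb (chromosome 10, 78425669 to 78427622, mm10) has 1 annotated transcript and so no transcript shares to compare. Ctsb (chromosome 14, 63122462 to 63145923) was mostly read from the coding transcript Ctsb-201, at 77.7% to 83.3% of its reads in Apoe-/- phagocytic, 77.7% to 82.5% in Apoe-/- non-phagocytic, 77.8% to 81.0% in wild-type phagocytic and 77.6% to 83.3% in wild-type non-phagocytic libraries. These ranges overlapped, and nearly all other Ctsb reads went to a transcript that retains an intron. Ctsd was split between the coding transcripts Ctsd-202 (53.7% to 64.2% in Apoe-/- phagocytic and 50.7% to 66.3% in Apoe-/- non-phagocytic libraries) and Ctsd-201. In Ctsh, 44.3% to 60.4% of its reads in Apoe-/- phagocytic, 34.9% to 55.1% in Apoe-/- non-phagocytic, 43.8% to 62.2% in wild-type phagocytic and 49.5% to 60.0% in wild-type non-phagocytic libraries were assigned to Ctsh-202, annotated as a target of nonsense-mediated decay. Its coding transcript Ctsh-201 took 13.6% to 30.6% in Apoe-/- phagocytic and 18.2% to 44.6% in Apoe-/- non-phagocytic libraries. Shares of transcripts are estimates from reads that fit several of them. Ctsb shares 774 identical bases with annotated transcripts of its neighbour Fdft1 and Ctsd 671 with Gm49369, Ctsa shares shorter stretches with its neighbours Neurl2 and Pltp, and Ctsl shares 977 identical bases with Gm47123, 395 with Gm49230 and shorter, less exact repeats with many genes, so reads there cannot be assigned with certainty. Fdft1 held 16.1 to 269 and Gm49369 0 to 43.1 estimated reads per library, against at least 1057 for Ctsb and 1685 for Ctsd. For Ctsl, with 458 to 2368 reads, some genes of the shorter repeats were not low. The rod gene Gnat1 (178 bases) held 535 to 7247 and Gtpbp4 (173 bases) 468 to 1661 estimated reads. How far these repeats touch the Ctsl values was not tested.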

How the data were processed

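The deposited tables, 1 for each library, list 116248 transcripts with the estimated count and the TPM that the authors obtained, per the file headers, and an effective length. The submitters' processing notes name Salmon 1.4.0, R 4.0.3, DESeq2 1.30.1 and build mm10 without their roles, while the trimming was not given there. The deposited FPKM table was not used. Transcripts were matched to GENCODE M21 by identifier (116072 matched), and the unmatched ones, with 0.118% to 0.262% of reads, were left out. Estimated counts were summed over 35596 genes and rounded. Tests used edgeR 4.0.16 under R 4.3.3 (quasi-likelihood, TMM, filterByExpr, 1 fit over 22 libraries and 4 groups). After filtering, 12415 genes remained, all 10 members included. The Benjamini-Hochberg threshold was 0.05 over all genes tested in each of 5 comparisons, and the SE is the log2 fold change divided by the root of F. Alternatives were DESeq2 1.42.0, median-of-ratios scaling, no filter, only the groups compared, length-scaled counts, no satellite-like genes (12 predicted genes), a replicate block and leaving out each library. The script was tested on simulated counts. TPM was used to compare genes and for ratios. Log2 CPM for correlations used a prior count of 2. Similar sequence means 75 or more bases at 95% identity (blastn). Named were all members, and of each related list the genes called and the 3 most abundant. A marker gene is not reported here. Members and lists were chosen with earlier results of these data known. Reads carry no molecular identifiers, so no interval of counting error is given, and depth limits chiefly Ctsk. Library pairs within a group differed by a chi-square of 7.01 to 67.3 for each degree of freedom, so no library was a copy.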

Additional observations from a re-analysis of the deposited data

Results flagged for a closer look

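Ctsk stood out in a single Apoe-/- phagocytic library. Library 1 held 8.81 CPM, from 32 estimated reads, while the next of its group held 1.67 CPM and 3 libraries held no read. The gap to the nearest library made up 0.810 of the group's range, above Dixon's 95% critical value for 6 samples. Among 40 groups of values examined (10 genes in 4 groups) this was the only one past its critical value, and chance alone passes about 1 in 20.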

How the results depend on the processing

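Values per member and comparison kept their direction and their side of the threshold in 401 of 437 cases over the alternatives and in 610 of 657 cases with 1 library left out. The cause of the exceptions was not tested. In what follows the count in parentheses is the one from the edgeR fit that the results rest on. With DESeq2, members called numbered 2 (against 1) for the sort in wild-type cells, and genes called numbered 168 (against 58) for the sort in Apoe-/- cells, 103 (against 26) for the sort in wild-type cells, 19 (against 4) for Apoe loss in phagocytic cells, 2 (against 0) for the difference between genotypes in the sort effect. With no filter on low counts, members called numbered 2 (against 1) for the sort in wild-type cells, and genes called numbered 137 (against 58) for the sort in Apoe-/- cells, 122 (against 26) for the sort in wild-type cells, 96 (against 4) for Apoe loss in phagocytic cells, 16 (against 2) for Apoe loss in non-phagocytic cells, 17 (against 0) for the difference between genotypes in the sort effect. With only the groups compared in the fit, members called numbered 0 (against 1) for the sort in wild-type cells, and genes called numbered 2 (against 4) for Apoe loss in phagocytic cells. With a replicate block, members called numbered 5 (against 2) for the sort in Apoe-/- cells, 2 (against 1) for the sort in wild-type cells, and genes called numbered 255 (against 58) for the sort in Apoe-/- cells, 135 (against 26) for the sort in wild-type cells, 7 (against 4) for Apoe loss in phagocytic cells. Without the libraries above 40% satellite-like reads (chosen after seeing the data), members called numbered 0 (against 2) for the sort in Apoe-/- cells, and genes called numbered 16 (against 58) for the sort in Apoe-/- cells. With the satellite share as a covariate (chosen after seeing the data), members called numbered 2 (against 1) for the sort in wild-type cells, and genes called numbered 59 (against 26) for the sort in wild-type cells. With 1 library left out in turn, calls ranged from 13 to 64 genes for the sort in wild-type cells, from 3 to 23 genes for Apoe loss in phagocytic cells, from 18 to 89 genes for the sort in Apoe-/- cells, from 1 to 2 members for the sort in Apoe-/- cells. With the block, which pairs libraries by number, Ctsa, Ctsd and Ctsz were called in Apoe-/- cells and Ctsb in wild-type cells. Deviations of same-numbered phagocytic and non-phagocytic libraries from their group means correlated at 0.0626 to 0.214 in Apoe-/- and 0.0402 to 0.423 in wild-type pairs, and a library correlated best with its own number in 5 of 6 and 2 of 5 pairs. In 11 of 11 pairs the correlation was above the mean with other numbers, at most a hint from the data and not from the design. Removing group means tends to push that mean to the opposite sign, so it is no separate baseline. Because the sources do not say whether equal numbers share eyes, the edgeR fit of the results left libraries unpaired. If they do share eyes, that fit counts differences between pools as error in the sort comparisons. The sign of these log2 fold changes, none of them called, turned. With no filter on low counts, Ctsl was at -0.010 for Apoe loss in phagocytic cells. With length-scaled counts, Ctsh was at 0.020, Ctsl at -0.13 for Apoe loss in phagocytic cells. With a replicate block, Ctsk was at -0.019 for the sort in Apoe-/- cells. Without the libraries above 40% satellite-like reads, Ctsc was at -0.10, Ctsh at -0.013 for the sort in Apoe-/- cells, Ctsa was at 0.041, Ctsb at 0.099, Ctsc at 0.069, Ctsd at 0.013, Ctsh at 0.092, Ctsk at -0.22 for Apoe loss in non-phagocytic cells, Ctsa was at -0.12, Ctsh at -0.11, Ctsz at -0.025 for the difference between genotypes in the sort effect. With the satellite share as a covariate, Ctsc was at -0.018 for the sort in Apoe-/- cells, Ctsa was at 0.12, Ctsh at 0.14, Ctss at 0.050 for Apoe loss in phagocytic cells, Ctsa was at 0.041, Ctsb at 0.088, Ctsc at 0.082, Ctsd at 0.096, Ctsh at 0.054 for Apoe loss in non-phagocytic cells. With 1 library left out, values that changed sign ranged as follows. For the sort in Apoe-/- cells, Ctsc lay between -0.052 and 0.16, Ctss lay between -0.16 and 0.094. For the sort in wild-type cells, Ctsh lay between -0.024 and 0.22. For Apoe loss in phagocytic cells, Ctsl lay between -0.060 and 0.12, Ctsa lay between -0.18 and 0.022, Ctsh lay between -0.13 and 0.11. For Apoe loss in non-phagocytic cells, Ctsl lay between -0.045 and 0.27, Ctss lay between -0.086 and 0.14, Ctsz lay between -0.055 and 0.14, Ctsd lay between -0.41 and 0.015, Ctsb lay between -0.18 and 0.040, Cstb lay between -0.32 and 0.17, Ctsc lay between -0.19 and 0.021, Ctsk lay between -0.28 and 0.96. For the difference between genotypes in the sort effect, Ctsz lay between -0.034 and 0.16, Ctsh lay between -0.017 and 0.23, Ctsl lay between -0.24 and 0.068, Ctsa lay between -0.023 and 0.20. Depth limits Ctsk, and the pool spread (biological coefficient of variation 0.426) limits small changes of the others.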
